A study of Homo sapiens with 6 samples.

Results

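The 9 genes described here encode both TMEM30 subunits, TMEM30A and TMEM30B, and 7 of the P4-ATPases that pump phospholipids across cell membranes, ATP8A1, ATP8B1, ATP8B2, ATP9A, ATP10D, ATP11A and ATP11B. They were found by symbol among 61279 genes, and the question was whether the pump genes differ together with TMEM30B. The 9 genes were chosen from this same comparison, so their levels and differences are a description and carry no p-value. RNA sequencing was done on 6 libraries labelled as T47D, a PIK3CA-mutant, hormone receptor-positive human breast cancer line. There were 3 libraries labelled MI-503, given 4 μmol/L of the drug for 24 hours, and 3 libraries labelled DMSO, given the solvent for 24 hours. MI-503 is a small molecule that keeps MLL1 (encoded by KMT2A) from binding menin (encoded by MEN1). Replicates 1, 2 and 3 are independent experiments by the study's account.

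The label of the DMSO libraries did not match their RNA. ESR1, the estrogen receptor gene that defines the line, had 210, 240 and 296 CPM (read counts scaled to library size with TMM factors) in the MI-503 libraries, against 0, 0.194 and 0 CPM in the DMSO libraries. KLK3, which encodes prostate-specific antigen, had 0 reads in the MI-503 libraries, against 3762, 3687 and 3673 CPM in the DMSO libraries. Of 14 luminal breast markers, 13 had higher levels under the MI-503 label, with summed levels of 14233 to 20500 CPM against 1474 to 1820 CPM under the DMSO label, and FOXA1 did not pass the test. All 14 prostate markers had lower levels under the MI-503 label, with summed levels of 183 to 189.9 CPM against 7142 to 9060 CPM under the DMSO label. An action of the drug and a difference in what the libraries labelled DMSO hold therefore cannot be told apart in any value below. Without the DMSO libraries no comparison remains, and the levels in the MI-503 libraries then stand alone. KMT2A had 103 ± 34.4 CPM in MI-503 libraries and 87.5 ± 34.2 CPM in DMSO libraries (edgeR adjusted p = 0.511), and MEN1 had 142 ± 12.2 CPM in MI-503 libraries and 58.7 ± 14.5 CPM in DMSO libraries (edgeR adjusted p = 0.000265; SD, n = 3 each). Libraries held 17404736 to 22168525 estimated reads, of which 1.38% to 7.18% were mitochondrial. Of all genes tested, 31.7% were called higher and 31.2% lower at an adjusted p under 0.05.

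P4-ATPases, or flippases, use ATP to move phospholipids to the cytosolic side of a membrane. This keeps phosphatidylserine and phosphatidylethanolamine off the outer face of the plasma membrane. Most of them need a TMEM30 subunit (also called CDC50) to fold, leave the endoplasmic reticulum and work. TMEM30A is the widely expressed subunit, and TMEM30B pairs with a part of the same pumps and is expressed in fewer tissues. ATP9A and ATP9B do not need a TMEM30 subunit. When flippases stop and scramblases open, phosphatidylserine reaches the cell surface, where it marks dying cells for uptake.

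The start-site windows of 4 of these genes are shown because these genes had the largest differences in level between the labels among the members with a RefSeq entry. Each window runs from 250 bases before to 50 bases after the RefSeq start on GRCh38.p14. Entries were present for 6 of the 9 genes. TMEM30A, ATP8B1 and ATP11B are named only. Capitals mark the motif CACCTG or its reverse complement CAGGTG (an E-box) in TMEM30B and the first ATP8B2 entry, GGTCA or TGACC (a steroid receptor half-site) in ATP10D, and GGGCGG or CCGCCC (a GC box) in ATP11A and the second ATP8B2 entry, where neighbouring matches may overlap. The motifs were chosen after the values were seen.
TMEM30B at chr14:61281289-61281588, minus strand: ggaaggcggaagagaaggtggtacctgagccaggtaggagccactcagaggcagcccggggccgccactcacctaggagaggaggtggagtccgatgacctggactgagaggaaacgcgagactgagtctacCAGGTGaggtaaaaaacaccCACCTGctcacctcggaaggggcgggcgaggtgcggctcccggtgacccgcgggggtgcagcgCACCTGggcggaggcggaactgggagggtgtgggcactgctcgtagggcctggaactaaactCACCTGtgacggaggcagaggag
ATP10D at chr4:47485025-47485324, plus strand: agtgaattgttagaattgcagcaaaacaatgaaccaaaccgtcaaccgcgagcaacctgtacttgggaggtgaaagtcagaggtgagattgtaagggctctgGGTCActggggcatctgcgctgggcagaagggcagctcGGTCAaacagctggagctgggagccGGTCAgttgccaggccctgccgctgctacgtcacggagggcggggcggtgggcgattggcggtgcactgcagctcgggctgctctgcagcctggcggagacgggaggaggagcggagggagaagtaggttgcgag
ATP11A at chr13:112689788-112690087, plus strand: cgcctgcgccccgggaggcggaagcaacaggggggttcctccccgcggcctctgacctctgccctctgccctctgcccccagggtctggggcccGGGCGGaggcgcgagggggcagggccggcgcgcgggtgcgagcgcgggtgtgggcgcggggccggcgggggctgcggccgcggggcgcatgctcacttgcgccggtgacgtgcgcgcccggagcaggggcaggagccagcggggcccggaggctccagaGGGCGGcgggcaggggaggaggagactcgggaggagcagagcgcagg
ATP8B2, first of 2 entries, at chr1:154327497-154327796, plus strand: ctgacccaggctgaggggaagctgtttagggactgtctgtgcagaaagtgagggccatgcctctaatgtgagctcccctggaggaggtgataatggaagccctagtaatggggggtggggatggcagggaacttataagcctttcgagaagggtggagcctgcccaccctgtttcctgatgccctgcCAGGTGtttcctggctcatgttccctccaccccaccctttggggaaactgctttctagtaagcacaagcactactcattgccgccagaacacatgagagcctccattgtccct
ATP8B2, second of 2 entries, at chr1:154328548-154328847, plus strand: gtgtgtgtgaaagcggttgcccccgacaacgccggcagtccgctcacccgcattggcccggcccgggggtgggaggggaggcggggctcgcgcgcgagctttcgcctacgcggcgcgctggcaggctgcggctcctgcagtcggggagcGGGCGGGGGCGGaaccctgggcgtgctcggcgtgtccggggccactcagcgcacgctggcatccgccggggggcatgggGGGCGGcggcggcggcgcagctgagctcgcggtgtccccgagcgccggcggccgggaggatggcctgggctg

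The TMEM30B window held 4 E-box matches, a count reached by 0.168% of 35116 RefSeq start-site windows of the same length, while 20.6% held at least 1. It also held 2 GGTCA and 2 GGGCGG matches. The ATP10D window held 3 GGTCA matches, a count reached by 1.91% of windows, while 37.4% held at least 1. The ATP11A window held 2 GGGCGG matches, the first ATP8B2 window 0 and the second 3, and 45.0% of all windows held at least 1. The first ATP8B2 window held 1 E-box match. It ends just before the annotated start of ATP8B2-207 (154327800), the transcript with most ATP8B2 reads, 63.2% in MI-503 libraries and 73.3% in DMSO libraries. The second window covers the annotated start of ATP8B2-204 (154328799), with 5.49% of ATP8B2 reads in MI-503 libraries and 2.51% in DMSO libraries. The annotated start of ATP8B2-202 (154325525) lies before both windows. This transcript had 27.2% of ATP8B2 reads in MI-503 libraries and 20.8% in DMSO libraries. GC content was 65.0% for TMEM30B, 61.3% for ATP10D, 80.3% for ATP11A, and 55.7% and 78.3% for the first and second ATP8B2 windows, against a median of 58.7% over all windows. These are matches of letters and were not tested as binding sites.

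Of the 9 genes, TMEM30B separated the labels most completely. It had 112, 119.8 and 112 CPM in the MI-503 libraries, against 0, 0 and 0 CPM in the DMSO libraries. Over each group this was 6478 estimated reads against 0 reads. With 3 reads over the DMSO group as the floor (0.0464 CPM, counting error only), TMEM30B was at least 2474-fold higher in the MI-503 libraries. The spread among the MI-503 libraries was small, with a mean of 114.7 ± 4.4 CPM (SD, n = 3). TMEM30B is a gene of 1 main exon: TMEM30B-202, annotated as a single exon, took 98.7% ± 2.19 of its TPM (salmon's abundance scaled for transcript length and library size) in the MI-503 libraries. The processed pseudogene TMEM30BP1 on chromosome X, a near copy, had 8 reads in MI-503 libraries and 12 in DMSO libraries, so few reads were assigned to it.

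TMEM30A, the general subunit, had 157, 153 and 157 CPM in MI-503 libraries, against 141, 123 and 99.1 CPM in DMSO libraries. All MI-503 libraries lay above all DMSO libraries, and the DMSO libraries were spread more widely, with means of 156 ± 2.57 CPM in MI-503 libraries and 121 ± 21.2 CPM in DMSO libraries (SD, n = 3 each). The log2 fold change was 0.36 (standard error 0.16), a difference that was not called. It was called when DMSO replicate 1 was left out, at a log2 fold change of 0.49. Both subunits were thus present in MI-503 libraries, and reads were found for TMEM30A alone in DMSO libraries. Per length, TMEM30B made up 42.2% ± 1.90 of the TMEM30 TPM in MI-503 libraries and 0% in DMSO libraries.

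**Figure D1:**
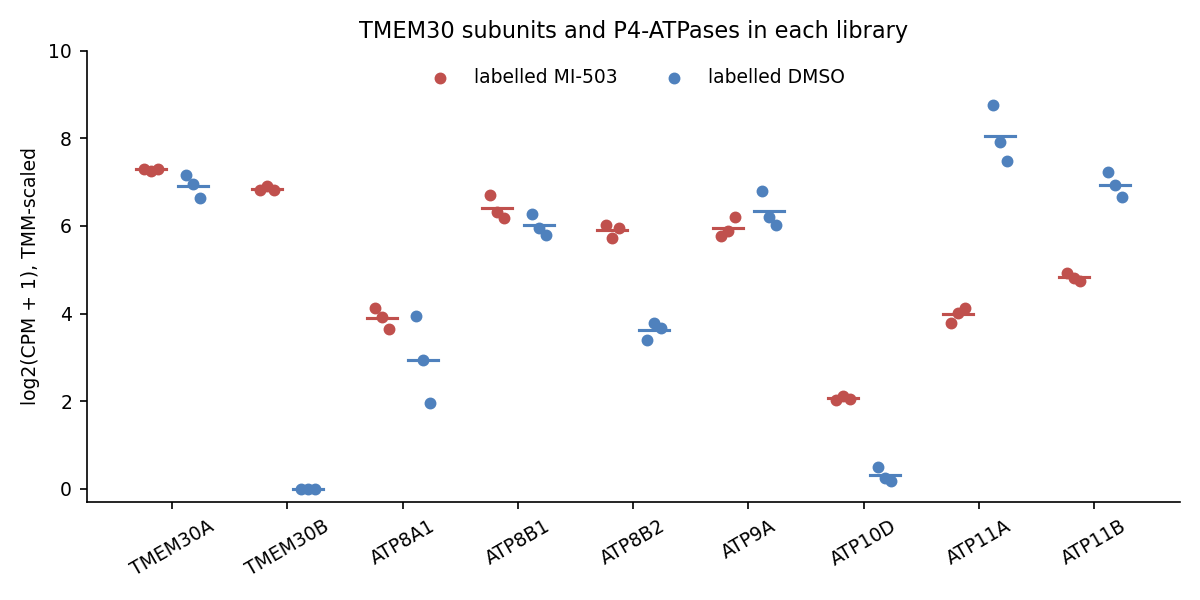
Level of each of the 9 genes in every library, as log2(CPM + 1) with TMM scaling, with the 3 libraries labelled MI-503 (red) left of the 3 labelled DMSO (blue) and a bar at each mean of the plotted values. TMEM30B sits between 112 and 119.8 CPM in MI-503 libraries and at 0 CPM in DMSO libraries, and ATP11A and ATP11B are lower in every MI-503 library.

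ATP11A and ATP11B differed in the direction opposite to TMEM30B. ATP11A, a plasma membrane flippase for phosphatidylserine and phosphatidylethanolamine, had 12.8, 15.3 and 16.5 CPM in MI-503 libraries, against 432, 241 and 177 CPM in DMSO libraries. The highest MI-503 library was far below the lowest DMSO library. ATP11A averaged 14.9 ± 1.88 CPM in MI-503 libraries and 283 ± 132 CPM in DMSO libraries (SD, n = 3 each), and its log2 fold change was -4.25 (standard error 0.33). ATP11A was the most expressed P4-ATPase of the DMSO libraries by mean TPM, and its log2 fold change ranged from -4.50 to -3.82 when each library was left out in turn. The antisense gene ATP11A-AS1 had 0 reads in MI-503 libraries and 7 in DMSO libraries.

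ATP11B, a flippase of the recycling endosome and trans-Golgi network, had 29.6, 27.0 and 26.0 CPM in MI-503 libraries, against 149, 121 and 100.2 CPM in DMSO libraries. The groups did not overlap, and the log2 fold change was -2.17 (standard error 0.18), or 4.49-fold lower in MI-503 libraries. Both pumps were therefore lower in each MI-503 library than in any DMSO library.

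In the ATP8B subfamily, whose best known substrate is phosphatidylcholine, ATP8B1, ATP8B2 and ATP8B3 had positive log2 fold changes that differed in size. ATP8B4, which did not pass the filter, is given below with the whole family. ATP8B2, a plasma membrane pump, had 63.9, 52.0 and 60.8 CPM in MI-503 libraries, against 9.59, 12.8 and 11.8 CPM in DMSO libraries. The groups were far apart, with a log2 fold change of 2.37 (standard error 0.18), or 5.17-fold higher in MI-503 libraries. ATP8B1, which acts at the apical membrane of epithelia and is mutated in an inherited cholestasis, had 103, 79.0 and 71.6 CPM in MI-503 libraries, against 76.4, 61.4 and 54.6 CPM in DMSO libraries. These ranges overlapped, and the log2 fold change of 0.40 (standard error 0.19) was not called. Without DMSO replicate 1 it was called, at 0.54. By mean TPM, ATP8B1 was the most expressed P4-ATPase of the MI-503 libraries, at 21.3 ± 5.38 TPM, against 16.4 ± 3.89 TPM in DMSO libraries (SD, n = 3 each). Reads of ATP8B1 and its overlapping antisense gene ATP8B1-AS1 cannot be told apart without strand, and the strand setting is not given in the sources used here. ATP8B1-AS1 held 36 reads in MI-503 libraries and 80 in DMSO libraries, while ATP8B1 held 4830 reads in MI-503 libraries and 4155 in DMSO libraries. ATP8B3, known from the sperm acrosome of the mouse, is outside the 9 genes. It had 12.3, 8.89 and 7.66 CPM in MI-503 libraries, against 2.44, 2.95 and 0.866 CPM in DMSO libraries. ATP8B3 was higher in MI-503 libraries by 2.21 on the log2 scale (standard error 0.43, edgeR adjusted p = 0.00138).

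ATP10D, a pump of glucosylceramide, was low in all libraries. It had 3.07, 3.35 and 3.15 CPM in MI-503 libraries, against 0.407, 0.194 and 0.137 CPM in DMSO libraries. This was 180 reads in MI-503 libraries against 16 reads in DMSO libraries, without overlap, and the log2 fold change was 3.66 (standard error 0.48). ATP10D and TMEM30B passed the filter on low counts only through the MI-503 libraries, so they could not have passed without a difference. ATP10A, a plasma membrane relative that moves phosphatidylcholine, is outside the 9 genes. It had 25.1, 31.1 and 33.1 CPM in MI-503 libraries, against 29.3, 23.7 and 22.4 CPM in DMSO libraries, and these ranges overlapped (log2 fold change 0.25, standard error 0.19, edgeR adjusted p = 0.277).

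ATP8A1, an endosomal phosphatidylserine flippase, had 16.4, 14.1 and 11.5 CPM in MI-503 libraries, against 14.4, 6.68 and 2.87 CPM in DMSO libraries. The DMSO libraries differed from each other by more than the groups did, and the log2 fold change of 0.81 (standard error 0.47) was not called. Leaving out DMSO replicate 1 raised it to 1.55, which was called. ATP9A, an endosomal pump that needs no TMEM30 subunit, had 53.4, 57.8 and 72.8 CPM in MI-503 libraries, against 110.0, 72.3 and 64.0 CPM in DMSO libraries. Its ranges overlapped, and the log2 fold change of -0.42 (standard error 0.22) was not called, but was called at -0.57 without DMSO replicate 3. ATP9B, its Golgi relative outside the 9 genes, had 15.4 ± 1.95 CPM in MI-503 libraries and 16.96 ± 4.04 CPM in DMSO libraries (SD, n = 3 each; log2 fold change -0.14, edgeR adjusted p = 0.604). The direction of ATP9B turned without DMSO replicate 1, to 0.06.

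Of the 9 genes, all passed the filter on low counts. Called higher in MI-503 libraries were 3 (TMEM30B, ATP8B2 and ATP10D), called lower were 2 (ATP11A and ATP11B), and 4 were not called. Among the 7 listed pumps alone, 2 were higher, 2 lower and 3 not called. Since the 9 genes were chosen by this contrast, these counts stand beside the 31.7% and 31.2% of all genes tested without being read against them. The groups did not overlap for 6 of the 9 genes, 4 higher and 2 lower, where 68.7% of all genes tested did not overlap. The pump genes thus did not follow TMEM30B in 1 direction: ATP8B2 and ATP10D were higher where TMEM30B was present, and ATP11A and ATP11B were lower there.

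**Figure D2:**
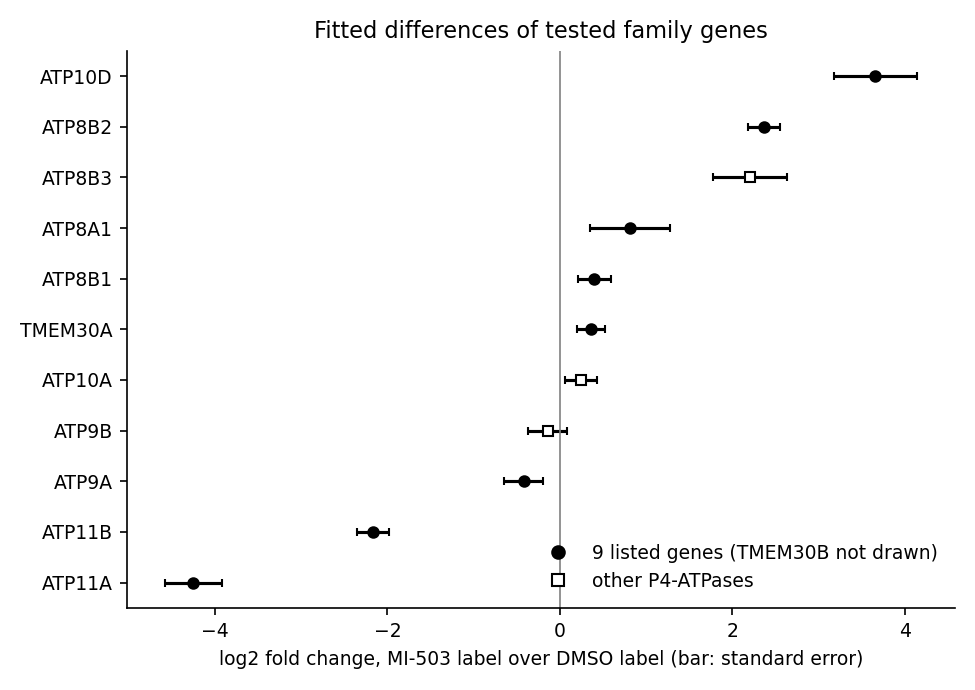
Fitted log2 fold changes of the tested family genes reported here, MI-503 label over DMSO label, with bars of 1 standard error. Filled circles are the listed genes, open squares other P4-ATPases, and TMEM30B is not drawn because its DMSO libraries hold 0 reads. ATP10D, ATP8B2 and ATP8B3 lie above 2, and ATP11A and ATP11B lie below -2.

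The whole annotated family holds 17 genes, of which 13 were tested. Passing the test were 4 that were higher in MI-503 libraries and 3 that were lower, and 6 were not called. That is 30.8% higher and 23.1% lower, beside 31.7% and 31.2% of all genes tested. The median log2 fold change was 0.36, beside -0.0044 for all genes tested. Most of the 13 are among the 9 genes chosen by this contrast, so these values are not read against those of all genes. Of the 4 tested P4-ATPases outside the 9, 1 was higher (25%), 1 lower (25%) and 2 not called, too few for a share to be read. The higher gene outside the 9 was ATP8B3. The count of higher genes was 7 without DMSO replicate 1, and the count of lower genes was 5 without DMSO replicate 3. ATP8B4 had 0 reads in MI-503 libraries and 35 in DMSO libraries, at least 10.2-fold lower in MI-503 libraries with 3 reads over the group as the floor (counting error only). ATP10B had 8 reads in MI-503 libraries and 0 in DMSO libraries, at least 3.06-fold higher in MI-503 libraries by the same floor. ATP8A2, a flippase of photoreceptors and neurons, had 15 reads in MI-503 libraries and 44 in DMSO libraries. The pseudogene TMEM30CP had 0 reads in every library. These 4 genes did not pass the filter on low counts, but ATP8B4 was called lower without a filter and by DESeq2 (adjusted p = 0.00152).

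The same DMSO libraries were high and low in most family genes. DMSO replicate 1 was the highest and DMSO replicate 3 the lowest DMSO library in 10 of 12 tested family genes with DMSO reads (83.3%), while 28.4% of all genes tested had this order. The median log2 ratio of DMSO replicate 1 over replicate 3 was 0.57 for the 7 listed pumps, 0.037 for all genes tested and 0.21 for the third of genes with the longest effective length. The effective lengths of the pumps lay between 3060 and 7462 bases. The part of this order in the results above was not tested beyond leaving out each library.

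On the scale per transcript length, the MI-503 libraries held more subunit and less pump transcript. TMEM30 genes summed to 89.9, 96.0 and 95.1 TPM in MI-503 libraries, against 52.3, 42.3 and 34.2 TPM in DMSO libraries. The 14 P4-ATPases summed to 98.8, 88.0 and 92.9 TPM in MI-503 libraries, against 219, 137 and 124 TPM in DMSO libraries. Neither sum overlapped between the groups. The ratio of TMEM30 to P4-ATPase TPM was 0.910, 1.09 and 1.02 in MI-503 libraries, against 0.239, 0.308 and 0.276 in DMSO libraries. The means were 1.01 ± 0.0910 in MI-503 libraries, close to 1 subunit transcript per pump transcript, and 0.274 ± 0.0344 in DMSO libraries (SD, n = 3 each). With TMEM30A alone the ratio was 0.582 ± 0.0422 in MI-503 libraries and 0.274 ± 0.0344 in DMSO libraries, so the gap did not rest on TMEM30B only. Without ATP9A and ATP9B, which need no subunit, it was 1.23 ± 0.136 in MI-503 libraries and 0.318 ± 0.0393 in DMSO libraries. These ratios are of transcripts and say nothing of protein.

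**Figure D3:**
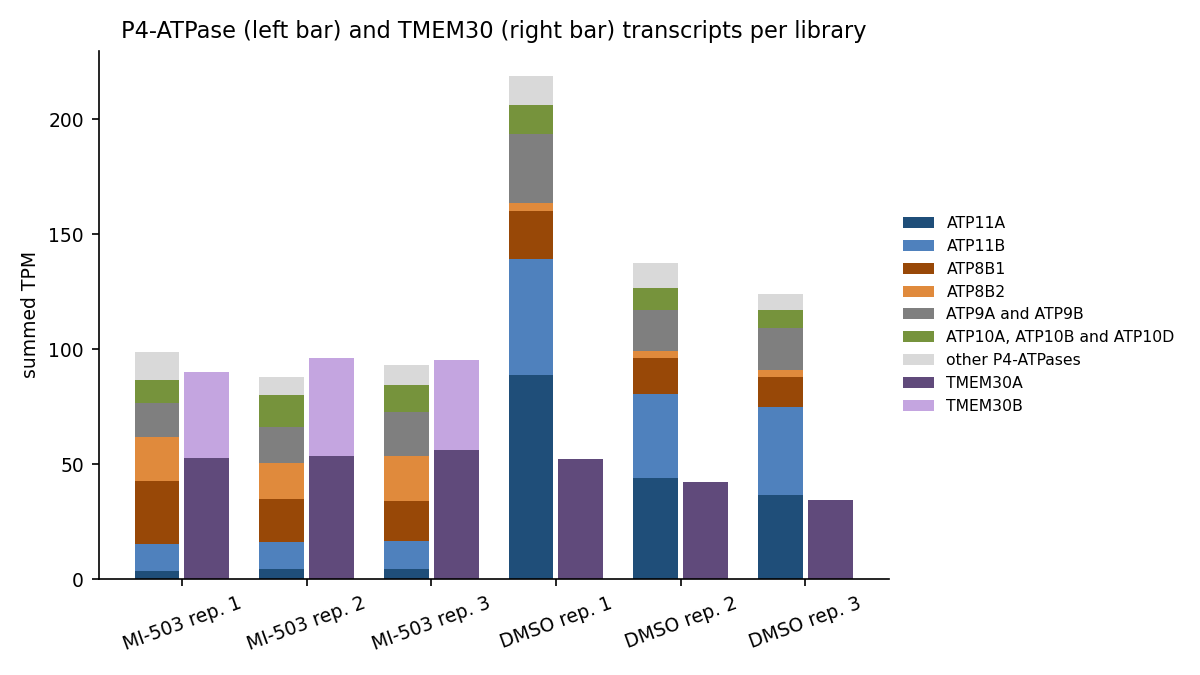
Summed TPM per library, with all 14 P4-ATPase genes stacked in the left bar and TMEM30 genes in the right bar, for the 3 MI-503 libraries and then the 3 DMSO libraries. The bars are of about equal height in MI-503 libraries (ratio 0.910 to 1.09), while the pump bar is far taller than the subunit bar in DMSO libraries (ratio 0.239 to 0.308), where ATP11A and ATP11B fill most of it.

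The make-up of the pump transcripts differed as well. The ATP8B genes took 46.3% ± 5.02 of P4-ATPase TPM in MI-503 libraries and 13.6% ± 1.58 in DMSO libraries (SD, n = 3 each). For single genes, ATP11A took 4.37% in MI-503 libraries and 34.0% in DMSO libraries, ATP11B took 12.8% in MI-503 libraries and 26.9% in DMSO libraries, and ATP8B2 took 19.3% in MI-503 libraries and 2.09% in DMSO libraries. ATP9A took 10.6% in MI-503 libraries and 8.90% in DMSO libraries. Among the 9 listed genes only, in order of mean TPM, the MI-503 libraries had TMEM30A (54.1), TMEM30B (39.6), ATP8B1 (21.3), ATP8B2 (17.98), ATP11B (11.9), ATP9A (9.84), ATP11A (4.06), ATP8A1 (2.98) and ATP10D (2.03). Neighbours whose ranges overlapped in this order were ATP8B1 with ATP8B2, ATP11A with ATP8A1, and ATP8A1 with ATP10D. For the same listed genes, the DMSO libraries had ATP11A (56.4), TMEM30A (42.9), ATP11B (41.8), ATP8B1 (16.4), ATP9A (14.3), ATP8B2 (3.24), ATP8A1 (1.62), ATP10D (0.0753) and TMEM30B (0). There, ATP11A, TMEM30A and ATP11B overlapped, as did ATP8B1 with ATP9A.

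Within ATP11A, the transcripts that carried the signal also differed. ATP11A lies at chr13:112690038-112887168 on GRCh38 and has 17 annotated transcripts in the files, of which 4 are at least 5000 bases long. This length limit was chosen after the values were seen. Long transcripts took 30.1%, 30.2% and 34.1% of ATP11A TPM in MI-503 libraries, against 74.5%, 76.5% and 64.0% in DMSO libraries. The groups did not overlap in this share. Long ATP11A transcripts were at 1.28 ± 0.208 TPM in MI-503 libraries and 41.1 ± 22.3 TPM in DMSO libraries, 32.1-fold higher in the DMSO libraries. Shorter ones were at 2.78 TPM in MI-503 libraries and 15.4 TPM in DMSO libraries, 5.54-fold higher in the DMSO libraries. The full-length coding transcript ATP11A-201 took 24.8% ± 6.71 of ATP11A TPM in MI-503 libraries and 44.9% ± 5.27 in DMSO libraries. The shorter ATP11A-204, annotated from 112785172 to 112860798, took 35.7% ± 4.25 in MI-503 libraries and 3.52% ± 3.35 in DMSO libraries (SD, n = 3 each). Its shares in MI-503 libraries rested on 54.5, 75.6 and 65.8 estimated reads. ATP11A-206, annotated from 112871768 to 112883958 near the end of the gene, took 15.2% of TPM in MI-503 libraries and 0% in DMSO libraries. It rested on 23.7, 31.4 and 10.3 estimated reads in MI-503 libraries. As shares of estimated reads, ATP11A-201 took 47.3% in MI-503 libraries and 57.6% in DMSO libraries, a smaller gap than in TPM. By the same measure, ATP11A-204 took 23.4% and 1.62%, and ATP11A-206 took 7.83% and 0%, in that order.

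ATP11B at chr3:182793503-182921629 had a smaller difference of the same kind. Its long transcript ATP11B-201 took 35.3%, 28.1% and 23.5% of ATP11B TPM in MI-503 libraries, against 49.3%, 56.1% and 39.6% in DMSO libraries, again without overlap. In estimated reads, which weigh long transcripts more, ATP11B-201 took 66.2% in MI-503 libraries and 81.4% in DMSO libraries. For ATP8B1, the long share was 84.8% ± 6.43 in MI-503 libraries and 89.0% ± 1.31 in DMSO libraries, and for ATP8B2 it was 63.2% ± 3.39 in MI-503 libraries and 77.9% ± 19.8 in DMSO libraries (SD, n = 3 each), both with overlap. All reads of ATP9A fell on long transcripts. ATP10D-206, a retained-intron transcript of 566 bases, took 61.1% ± 9.27 of ATP10D TPM but 9.12% of its estimated reads in MI-503 libraries. The TPM of ATP10D therefore rests mostly on a short transcript with few reads. TMEM30A-201 took 92.1% ± 1.05 of TMEM30A TPM in MI-503 libraries and 98.2% ± 0.707 in DMSO libraries.

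**Figure D4:**
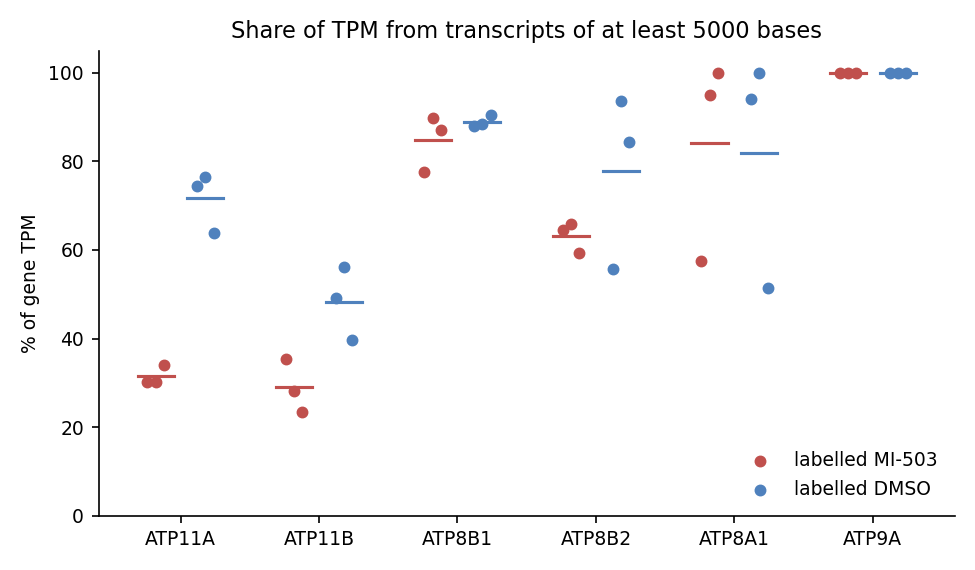
Percent of each gene's TPM that was assigned to transcripts of at least 5000 bases in each library, with MI-503 libraries (red) left of DMSO libraries (blue) and bars at the means. ATP11A is at 30.1% to 34.1% in MI-503 libraries and 64.0% to 76.5% in DMSO libraries, and ATP8B1, ATP8B2, ATP8A1 and ATP9A overlap.

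Genes that act with flippases on membrane asymmetry differed in both directions. Of 38 such genes 34 were tested, of which 13 were higher in MI-503 libraries and 9 lower, while 12 were not called, with a median log2 fold change of 0.06. That is 38.2% higher and 26.5% lower, against 31.7% and 31.2% of all genes tested.

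Scramblases, which let lipids pass both ways, had 5 higher, 2 lower and 3 not called of 10 tested. That is 50% higher and 20% lower, against 31.7% and 31.2% of all genes tested. PLSCR1, a phospholipid scramblase family gene induced by interferon, had 10.6 ± 1.58 CPM in MI-503 libraries and 0.124 ± 0.0701 CPM in DMSO libraries (log2 fold change 6.35, edgeR adjusted p = 1.69e-06), and passed the filter through the MI-503 libraries. ANO6, the calcium-activated scramblase of the plasma membrane, had 106 ± 7.98 CPM in MI-503 libraries and 31.8 ± 5.97 CPM in DMSO libraries (log2 fold change 1.74, edgeR adjusted p = 2.2e-05). NPTN, a subunit of XKR8 scramblase, was higher in MI-503 libraries by 1.74 on the log2 scale (edgeR adjusted p = 7.96e-06). XKR8 itself was not called (log2 fold change -0.26, edgeR adjusted p = 0.384). ATG9A, the scramblase of autophagosome growth, was lower by 1.02 (edgeR adjusted p = 0.000167).

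ABC transporters that move lipids outward had 1 lower and 3 not called of 4 tested, or 0% higher and 25% lower. The shares of all genes tested were 31.7% and 31.2%. ABCC1 had 64.8 ± 9.07 CPM in MI-503 libraries and 238 ± 27.2 CPM in DMSO libraries (log2 fold change -1.88, edgeR adjusted p = 8.4e-06). ABCG1 (0.78), ABCA1 (1.25) and ABCA7 (-0.33), all exporters of cholesterol or phospholipid, did not pass the test on these log2 fold changes, ABCG1 passed it without DMSO replicate 1 (1.02), and ABCA7 turned to 0.15 without DMSO replicate 3.

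Genes for making and moving phosphatidylserine had 4 higher, 4 lower and 3 not called of 11. Shares were 36.4% higher and 36.4% lower, against 31.7% and 31.2% of all genes tested. OSBPL5 and OSBPL8 carry phosphatidylserine from the endoplasmic reticulum to the plasma membrane. They were lower in MI-503 libraries by 1.51 and by 1.35 on the log2 scale. OSBPL10, a relative, had 18.4 ± 0.297 CPM in MI-503 libraries, against 2.21 ± 0.568 CPM in DMSO libraries (log2 fold change 3.05, edgeR adjusted p = 6.8e-06). PI4K2A, which makes the phosphatidylinositol 4-phosphate that regulates flippases of the Golgi and endosomes, was higher in MI-503 libraries by 0.67.

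Regulation and trafficking genes had 4 higher, 2 lower and 3 not called of 9. Here 44.4% were higher and 22.2% lower, against 31.7% and 31.2% of all genes tested. EHD1, which recycles endosomal membranes, had 214 ± 36.9 CPM in MI-503 libraries and 25.5 ± 0.588 CPM in DMSO libraries (log2 fold change 3.07, edgeR adjusted p = 3.91e-07). MON2, a partner of the ATP9A and DOP1 complex on endosomes, was higher in MI-503 libraries by 1.07 on the log2 scale. PLEKHB2, a phosphatidylserine-binding protein of recycling endosomes, was lower there by 1.51.

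P-type ATPases outside the flippase family pump ions and polyamines and need no TMEM30 subunit. Of 22 such genes 16 were tested, of which 6 were higher in MI-503 libraries (37.5%) and 6 lower (37.5%), near the 31.7% and 31.2% of all genes tested, while 4 were not called, with a median log2 fold change of -0.11. The calcium pump of the endoplasmic reticulum ATP2A3 had 67.6 ± 2.41 CPM in MI-503 libraries and 1 read in all DMSO libraries together. ATP2B4, a plasma membrane calcium pump, was higher in MI-503 libraries by 2.32 on the log2 scale (edgeR adjusted p = 2.69e-05). ATP7A, a copper pump, was lower by 2.37 (edgeR adjusted p = 2.11e-05). ATP2A3 passed the filter through the MI-503 libraries. In all these bulk libraries, fewer cells of a type and less RNA per cell cannot be told apart.

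TMEM30B lies at chr14:61277370-61281761 on the minus strand of GRCh38, inside PRKCH on the plus strand. PRKCH, a protein kinase C gene, has 27 annotated transcripts, of which 3 span TMEM30B and 3 have an exon overlapping it. PRKCH had 52.7, 50.5 and 48.6 CPM in MI-503 libraries, against 37.9, 45.9 and 21.6 CPM in DMSO libraries. The groups did not overlap, as for 68.7% of all genes tested. The difference in PRKCH did not pass the test (log2 fold change 0.53, edgeR adjusted p = 0.0894). The DMSO libraries thus held 2260 PRKCH reads and 0 TMEM30B reads. The other protein-coding genes starting within 500 kb with reads were TRMT5, SLC38A6, HIF1A and SNAPC1, with log2 fold changes between -0.07 and 0.58. With PRKCH, 0 of these 5 passed the edgeR test, 0 passed by DESeq2, and 1 (SLC38A6) had an unadjusted p under 0.05 by edgeR. Among all genes tested, edgeR called 31.7% higher and 31.2% lower. The groups of SLC38A6 did not overlap either. HIF1A, the hypoxia factor, had 181 ± 16.0 CPM in MI-503 libraries and 183 ± 36.4 CPM in DMSO libraries. Leaving out a library brought 3 of the 5 past the threshold, PRKCH (0.76 without DMSO replicate 2), SLC38A6 (0.74 without MI-503 replicate 1) and SNAPC1 (0.56 without MI-503 replicate 3).

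The 5 protein-coding genes whose levels lay nearest to TMEM30B over the 6 libraries, by Euclidean distance of log2(CPM + 1), were LIN28A (0.21), CBFA2T3 (0.29), S100A6 (0.32), ALDH7A1 (0.33) and EHD2 (0.44). No listed pump was among them. That follows from the pump levels given above and adds nothing on whether the pumps differ together with TMEM30B. LIN28A, which encodes an RNA-binding protein of embryonic cells, had 100.4, 119.5 and 124 CPM in MI-503 libraries, against 0 reads in DMSO libraries. S100A6, a calcium-binding protein gene, had 117 ± 13.7 CPM in MI-503 libraries and 3 reads in all DMSO libraries together. The likeness is in level over 2 groups of 3 libraries and rests on the step between the labels.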

How the data were processed

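RNA of 6 libraries was sequenced. The authors quantified transcripts with salmon (Illumina DRAGEN) and deposited its estimated counts per transcript, without normalization. The authors also deposited TPM, calculated by salmon within each library from counts and effective lengths. The submitters' processing notes name GRCh38.p13 and hg38. For the salmon version, annotation release, strand and bias settings, the sources used here give nothing.

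GENCODE release 44 linked transcripts to genes and matched 229321 of 232117 transcripts (98.8%). Estimated counts were summed to 61279 genes and rounded. Groups came from the labels. The comparison was edgeR 4.0.16 (quasi-likelihood, filterByExpr, TMM; R 4.3.3), with Benjamini-Hochberg adjustment over 16442 genes and a call at an adjusted p under 0.05. Standard errors of the edgeR log2 fold changes were derived, as the absolute log2 fold change over the square root of the quasi-likelihood F statistic. The study's tool, DESeq2 1.42.0, served as an alternative. Other settings tried were scaling by upper quartile or RLE, no filter, at least 1 CPM in 3 libraries, limma 3.58.1 on log2(TPM + 0.1), an effective length offset, a replicate block, and leaving out each library. The test was checked on simulated counts with a shared dispersion and far fewer changed genes than were called here. That check does not cover data in which most genes differ. TPM ratios, transcript shares and motif matches were not tested. Libraries of 17404736 to 22168525 reads set the precision, and floors (3 reads over a group) cover counting error only.

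The 9 genes and all lists were chosen with earlier results of these data known. Named were all family genes, the up to 4 genes of each other list with the smallest adjusted p, the 5 protein-coding genes nearest to TMEM30B, protein-coding genes starting within 500 kb of it, and ESR1, KLK3, KMT2A and MEN1. FOXA1, XKR8, TMEM30BP1, ATP8B1-AS1 and ATP11A-AS1 were named after their values were seen. A few genes taken by the naming rule are not reported here. Promoters are RefSeq windows on GRCh38.p14.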

Additional observations from a re-analysis of the deposited data

How the results depend on the processing

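Of the alternative values for the 47 genes that the naming rule takes, 626 kept their direction and their side of the threshold, 18 passed it where the reported value did not, 0 lost it and 13 changed sign, all of them for genes that were not called. The called genes TMEM30B, ATP8B2, ATP10D, ATP11A and ATP11B kept their calls under every alternative run. These genes were chosen from this same comparison and every run reused its libraries. Their kept calls therefore describe the effect of settings and are no separate support for the differences. The count of higher family genes ranged from 4 to 7 when each library was left out, with 7 without DMSO replicate 1 (TMEM30A, ATP8A1 and ATP8B1 added). The count of lower family genes ranged from 3 to 5, with 5 without DMSO replicate 3 (ATP9A and ATP8A2 added). It was 4 with DESeq2 and without a filter, and without DMSO replicate 1 or any of the MI-503 replicates, where ATP8B4 was added. TMEM30A also passed with the length offset, ATP8A1 without a filter, and ABCG1 with DESeq2, with the length offset, without a filter and without DMSO replicate 1. Near TMEM30B, PRKCH passed without a filter and without DMSO replicate 2 (0.76), SLC38A6 without MI-503 replicate 1 (0.74) and SNAPC1 without MI-503 replicate 3 (0.56). Log2 fold changes turned for ATP9B (0.057 without DMSO replicate 1), ATP10A (-0.0077 with limma on TPM), ABCA7 (0.15 without DMSO replicate 3) and KMT2A (-0.016 without MI-503 replicate 1). The far end of the leave-out range kept its sign for ATP9B (-0.29 without DMSO replicate 3). So did that of ABCA7 (-0.55) and KMT2A (0.59), both without DMSO replicate 1. HIF1A turned as well (0.029 without a filter, 0.060 with the length offset, range -0.15 to 0.14 with a library left out). TRMT5 also turned (0.15 with the length offset, 0.056 with limma on TPM, range -0.19 to 0.072 with a library left out). The cause was not tested. The ratio of TMEM30 to P4-ATPase signal was 0.819 for MI-503 and 0.194 for DMSO in CPM, 1.38 for MI-503 and 0.342 for DMSO over protein-coding transcripts, and 0.967 to 1.06 for MI-503 and 0.258 to 0.292 for DMSO with a library left out. ATP10D is limited by depth, with 180 reads in MI-503 libraries and 16 in DMSO libraries.

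The correlations of same-numbered deviations from the group means were 0.0496, 0.218 and -0.0079 over 9786 genes. The value for replicate 2 was the highest of all pairs, while MI-503 replicate 1 correlated best with DMSO replicate 3 (0.113). With 3 libraries per label, these values cannot settle whether same-numbered libraries belong together. With the number as a replicate block, 6 family genes were higher (ATP8A1 and ATP8B1 added) and 3 lower, and PRKCH and ABCG1 also passed. The called named genes all stayed called with the block.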
